A study of Mus musculus with 12 samples.

Results

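The genes of the laminin chains and the integrin chains were followed across the trigeminal ganglia of 12 mice. They were chosen by symbol: Lama, Lamb or Lamc plus a number, and Itga or Itgb plus the name of a subunit. Of 51341 genes in the deposited table, 38 met this rule, 11 laminin chains, 18 integrin α chains and 9 integrin β chains. Another 4 symbols of the same start (Itgb1bp1, Itgb1bp2, Itgb3bp and Itgbl1) belong to genes of other kinds and were set apart.

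Polyadenylated RNA was sequenced from ganglia. They came from 6 mice that responded to PACAP, the neuropeptide pituitary adenylate cyclase-activating polypeptide, and 6 that did not, each group holding 3 males and 3 females. All were of CD1, an outbred stock. The series asks about light aversion after PACAP and its inheritance. The sources used here do not give the age of the mice, the scoring of the response, or the dose and timing of PACAP. Each value is an FPKM (fragments scaled to gene length and to the size of the library), a unit inferred from the values, and all comparisons were made on log2(FPKM + 1).

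Laminins are secreted trimers of an α, a β and a γ chain that polymerise into the basement membrane around Schwann cells, vessels, muscle and the surface of the ganglion. Integrins are receptors of an α and a β chain that tie cells to laminin, collagen, fibronectin and other ligands, and on blood cells to other cells. In peripheral nerve, laminin and its integrin receptors are known for their part in the sorting and myelination of axons by Schwann cells.

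The total per mouse ranged from 286388 to 358590 FPKM, and between 12648 and 13994 genes reached 1 FPKM. A first principal component (28.01% of the variance) set nonresponder 4 apart at 72.7, and another (18.7%) set responder 1 apart at 69.7. Pituitary markers summed to 77609 FPKM in responder 1, against at most 1053 in nonresponders, and neutrophil markers to 4227 in nonresponder 4, against at most 632 in responders. Markers of the ganglion itself were present, with sensory neuron markers summing to between 2987 and 6236 FPKM in responders and between 3422 and 5208 in nonresponders. The number that opens the description of each sample was never shared between responders and nonresponders, so that it and the response cannot be told apart. In whole ganglia, fewer cells of a type and less RNA per cell cannot be told apart either.

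Of the 38 members, 25 reached 1 FPKM in at least 3 mice and entered the test, 8 laminin chains, 12 integrin α chains and 5 integrin β chains. By limma, 0 of the 25 passed an adjusted p of 0.05 between responders and nonresponders. Of all 14203 genes tested, 2 passed higher (0.0141%) and 1 lower (0.00704%). At an unadjusted p under 0.05, 3 members were lower in responders and 0 higher, where the shares over all genes were 4.17% lower and 3.23% higher. Of the tested members, 20 had a lower value in responders, against 49.3% of all genes, and 5 a higher one, against 50.7%. Their median log2 fold change was -0.25, against 0.0034 over all genes. Without responder 1 and nonresponder 4, 18 of 25 were lower and the median was -0.10. For 0 of 25 members did the groups not overlap, where 0.253% of all genes were higher and 0.296% lower without overlap.

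**Figure D1:**
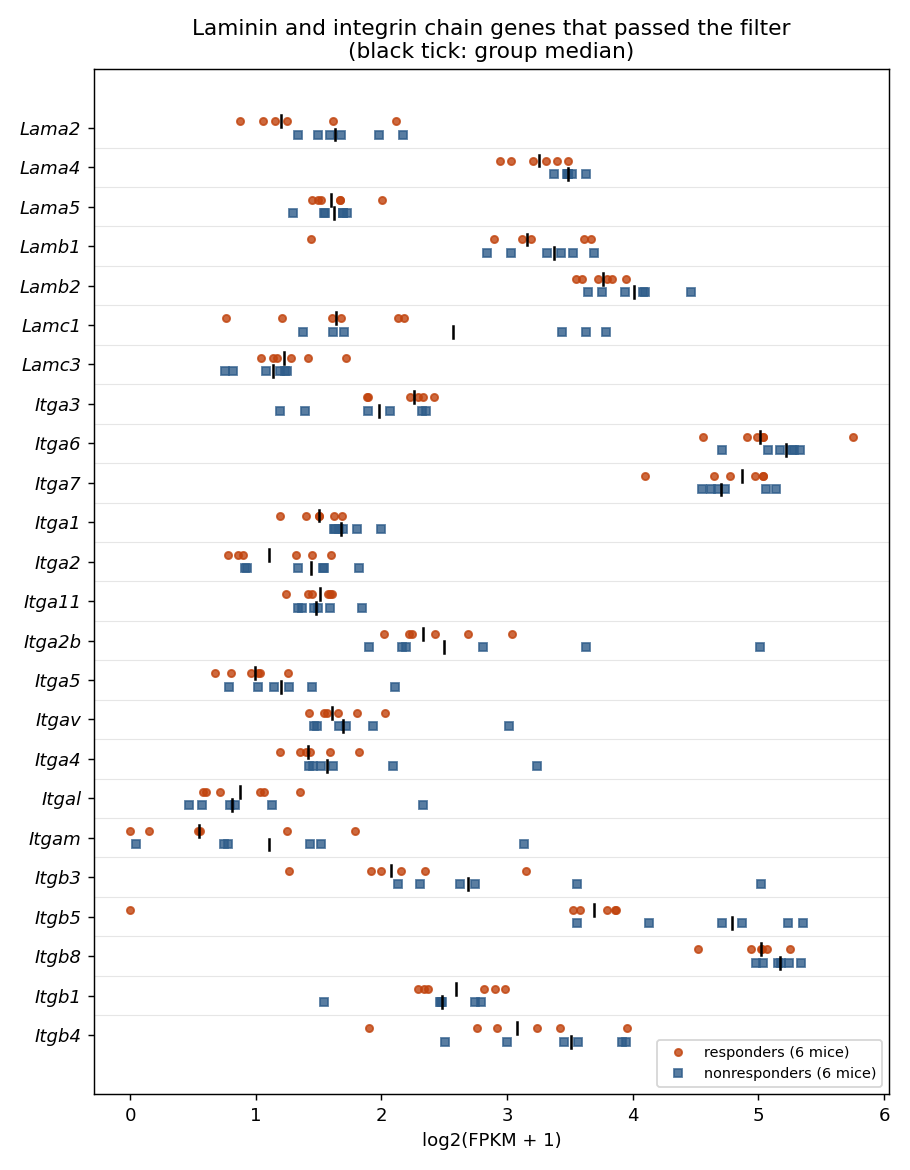
Level of 24 of the 25 tested members in each mouse, as log2(FPKM + 1) on the horizontal axis, with circles for the 6 responders, squares for the 6 nonresponders and black ticks for the group medians. The groups overlapped in each of the 24, and Itga6, Itga7 and Itgb8 were among the highest in both.

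**Figure D2:**
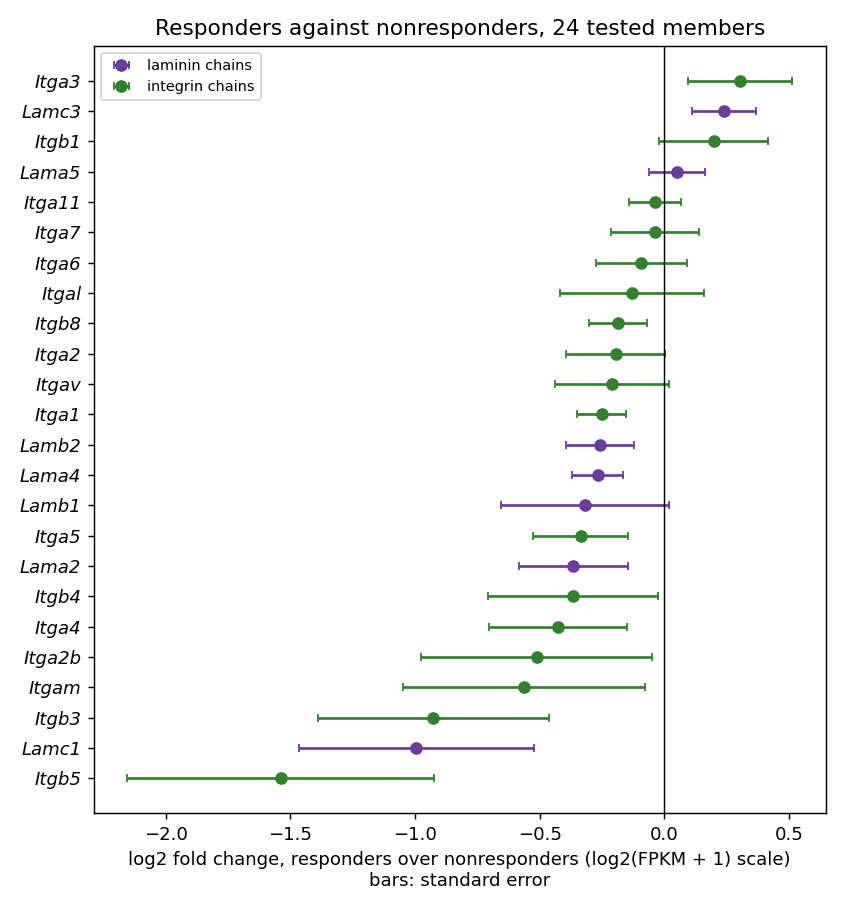
Log2 fold change of responders over nonresponders for 24 of the 25 tested members, with standard errors from limma, laminin chains in purple and integrin chains in green. Of the 24, 20 lay below 0, from -1.54 for Itgb5, and 4 above 0, up to 0.30 for Itga3.

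Among the laminin α chains, Lama4 was the most abundant in every mouse, and its product is the α chain of vessels and of peripheral nerve. Its values ran from 6.68 FPKM (median 8.57) to 10.2 in responders, against 9.38 (median 10.2) to 11.3 in nonresponders. Most nonresponders lay above most responders, with overlap. The log2 fold change of Lama4 was -0.27 (SE 0.103, limma unadjusted p = 0.0248, adjusted p = 0.63). With mice averaged by the number in their description it was -0.21.

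Lama2, the α chain of Schwann cell and muscle basement membranes whose loss causes a congenital muscular dystrophy, was much lower in level. It ran from 0.835 FPKM (median 1.302) to 3.34 in responders, against 1.53 (median 2.11) to 3.52 in nonresponders. The groups overlapped widely, with responder 6 near the top of the nonresponders (log2 fold change -0.36, SE 0.218, adjusted p = 0.735). Lama5, a chain of mature vessels and many epithelia, averaged 2.13 ± 0.471 FPKM in responders and 2.01 ± 0.319 in nonresponders (SD over 6 mice each). Its log2 fold change of 0.051 had an adjusted p = 0.928.

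The other α chains did not pass the filter. Lama1, a chain of early embryonic and of meningeal basement membranes, ran from 0.203 FPKM (median 0.335) to 2.12 in responders, where responder 1 stood alone. In nonresponders it ran from 0.196 (median 0.360) to 0.561. Lama3, the chain of skin and epithelial anchoring, was listed at 0 in all 12 mice.

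In shares of the summed FPKM of the α chains, Lama4 held 65.5% ± 7.78 in responders and 68.7% ± 3.66 in nonresponders. Lama2 held 12.7% ± 6.18 in responders and 15.4% ± 4.18 in nonresponders, and Lama5 16.7% ± 4.08 and 13.5% ± 2.38 in the same order. Each of these shares differed between the groups by less than the SD over responders.

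**Figure D3:**
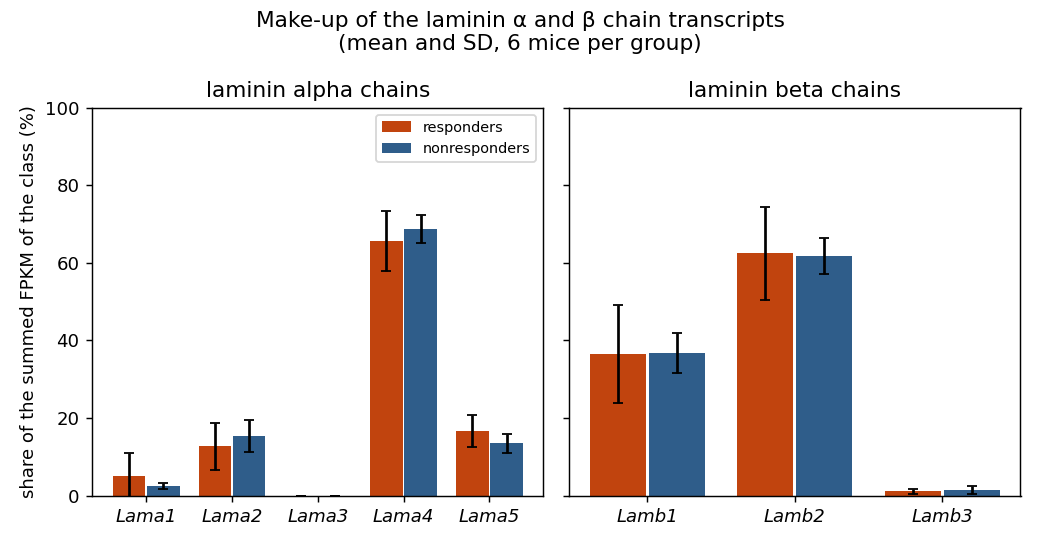
Share of each chain in the summed FPKM of the laminin α or β chains, in percent, as the mean with SD over 6 mice per group. Lama4 led the α chains and Lamb2 the β chains in both groups, and the widest error bar was that of Lamb1 in responders.

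Of the β chains, Lamb2 was the higher, and its product is a chain of vessels, nerve and the neuromuscular junction. It ran from 10.7 FPKM (median 12.6) to 14.4 in responders, against 11.5 (median 15.1) to 21.1 in nonresponders, where nonresponder 3 was the highest. Its log2 fold change was -0.26 (SE 0.136, adjusted p = 0.706), and -0.16 without nonresponder 3. Lamb1, a β chain of most early basement membranes, ran from 1.72 FPKM (median 7.92) to 11.7 in responders, against 6.16 (median 9.39) to 11.9 in nonresponders. Responder 1 alone set the low end in responders. The log2 fold change of Lamb1 was -0.32 (SE 0.337, adjusted p = 0.839) with all mice and 0.0079 without responder 1. Lamb3, the epithelial β chain, was left out by the filter at 0.108 to 0.352 FPKM in responders and 0.0835 to 0.796 in nonresponders.

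Lamc1, the γ chain of most laminins, varied widely between mice. Responders 1 to 6 were at 3.38, 3.53, 2.04, 2.21, 1.31 and 0.70 FPKM, against 12.8, 9.81, 2.05, 11.4, 2.26 and 1.60 in nonresponders 1 to 6. Nonresponders 1, 2 and 4 lay above all other mice, while nonresponders 3, 5 and 6 lay within the range of the responders. Lamb2 was at 10.7 FPKM or more in every mouse. Whether the low listings of Lamc1 are true levels or failed estimates was not tested. The log2 fold change was -0.995 (SE 0.470, limma unadjusted p = 0.0575, adjusted p = 0.678). The mice of the higher level do not form a sex or a description number of their own: nonresponder 1 is female, and nonresponder 5 shares the number 82 with nonresponders 2 and 4.

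Lamc3, a γ chain found in nerve and in the retina, averaged 1.49 ± 0.448 FPKM in responders and 1.10 ± 0.303 in nonresponders (log2 fold change 0.24, SE 0.129, adjusted p = 0.715). Summed over chains, α ran from 11.3 to 16.4 FPKM per mouse and β from 14.98 to 32.1.

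The laminin-binding integrin α chains Itga6 and Itga7 had the highest means of the α chains. In nonresponder 4, Itga2b (31.2 FPKM) lay above Itga7 (22.5). Itga6, which pairs with β1 or with β4 as a laminin receptor of Schwann cells and epithelia, ran from 22.6 FPKM (median 31.2) to 52.9 in responders, against 25.2 (median 36.2) to 39.3 in nonresponders. Responder 6 stood above all other mice, and the groups otherwise overlapped (log2 fold change -0.093, SE 0.182, adjusted p = 0.916). Itga7, whose product pairs with β1 as the laminin receptor of muscle and of some neurons, averaged 26.7 ± 6.07 FPKM in responders and 27.2 ± 4.95 in nonresponders (adjusted p = 0.967). Itga3, another laminin receptor chain, ran from 2.69 FPKM (median 3.79) to 4.35 in responders, against 1.28 (median 2.96) to 4.10 in nonresponders. The lowest values were those of nonresponders 3 and 4 (log2 fold change 0.30, SE 0.209, adjusted p = 0.766, and 0.17 and 0.18 without the one or the other). Together Itga6 and Itga7 held 40.6% ± 5.64 and 33.0% ± 4.12 of the summed α FPKM in responders, against 38.1% ± 7.78 and 30.2% ± 7.94 in nonresponders.

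The listed level of their partner Itgb1, the β chain shared by most integrins, was far below that of Itga6 and Itga7. Another low listing beside a related chain was that of Col4a2, a chain of collagen IV. It averaged 0.539 FPKM in responders and 0.365 in nonresponders, against 19.7 and 25.7 for Col4a1. Whether such low listings are true levels or failed estimates was not tested. Itgb1 ran from 3.89 FPKM (median 5.11) to 6.89 in responders, against 1.92 (median 4.58) to 5.92 in nonresponders, with nonresponder 2 the lowest. Its log2 fold change was 0.20 (SE 0.219, adjusted p = 0.844), and 0.0074 without nonresponder 2, 0.11 without responder 2 and 0.13 without responder 1. The known partner of α7 is β1. Itgb4, the β chain of the α6β4 laminin receptor on the outer face of myelinating Schwann cells, ran from 2.73 FPKM (median 7.50) to 14.5 in responders, against 4.68 (median 10.4) to 14.5 in nonresponders. Both groups covered nearly the same range (log2 fold change -0.37, SE 0.342, adjusted p = 0.808, and -0.14 without responder 2, -0.22 without nonresponder 5 and -0.59 without nonresponder 1).

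Itgb8 had the highest mean of the β chains, with Itgb5 above it in nonresponder 5 and Itgb3 in nonresponder 4. Its product pairs with αv and frees latent TGF-β. It ran from 22.0 FPKM (median 31.5) to 37.0 in responders, against 30.5 (median 35.0) to 39.4 in nonresponders. Responder 1 was the lowest of all mice, and the remaining responders overlapped the nonresponders (log2 fold change -0.19, SE 0.116, adjusted p = 0.741, and -0.099 without responder 1).

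Itgb5, whose product pairs with αv to bind vitronectin, had the lowest fold change of the 25 members. Responders 1 to 6 were listed at 0, 10.98, 12.9, 13.6, 10.5 and 13.5 FPKM, and nonresponders 1 to 6 at 36.7, 28.2, 16.5, 10.8, 39.9 and 25.2. All responders lay below 5 of the 6 nonresponders, and only nonresponder 4 fell within their range. The log2 fold change was -1.54 (SE 0.615, limma unadjusted p = 0.029, adjusted p = 0.64). Without responder 1 it was -0.92 (adjusted p = 0.505), so that this mouse moved it by more than 1.5 times. Averaged by description number it was -1.23.

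The 0 of responder 1 was rare in kind. In the whole table only 4 values were 0 in a single mouse with at least 5 FPKM in each of the other 11, and 2 of these were in responder 1. Such a 0 can be a failed estimate and is read here as a listing.

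The promoter of Itgb5 is shown because this chain had the largest difference, and those of Itga2b, Itga4 and Itgam because these chains shared their highest mouse. RefSeq (GRCm38.p6) gave windows from 250 bases before to 50 bases after the annotated start for 24 of the 38 members, 27 windows in all. Capitals mark every match, on either strand, to 4 motifs, and no match in these windows overlapped another. The first motif was the GC box, with the letters GGGCGG. The next was a core bound by ETS factors, with the letters GAGGAA. The third, with the letters AGATAA, is known from promoters of blood cell genes. The last, with the letters TATAAA, is a core promoter element. The windows are chr16:33829415-33829714 (plus strand) for Itgb5, chr11:102469834-102470133 (minus strand) for Itga2b, chr2:79255176-79255475 (plus strand) for Itga4 and chr7:128062390-128062689 (plus strand) for Itgam.
Itgb5 promoter: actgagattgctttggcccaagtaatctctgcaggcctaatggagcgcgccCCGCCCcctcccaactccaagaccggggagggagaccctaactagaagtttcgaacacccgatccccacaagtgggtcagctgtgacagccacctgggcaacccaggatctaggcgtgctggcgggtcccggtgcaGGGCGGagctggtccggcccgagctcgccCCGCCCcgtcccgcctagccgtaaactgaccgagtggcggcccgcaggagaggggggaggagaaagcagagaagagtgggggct
Itga2b promoter: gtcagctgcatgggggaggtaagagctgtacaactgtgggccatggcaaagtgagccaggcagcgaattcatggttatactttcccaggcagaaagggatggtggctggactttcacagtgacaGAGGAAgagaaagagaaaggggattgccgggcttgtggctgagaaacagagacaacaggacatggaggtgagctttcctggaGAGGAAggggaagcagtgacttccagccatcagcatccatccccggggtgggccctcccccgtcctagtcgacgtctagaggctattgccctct
Itga4 promoter: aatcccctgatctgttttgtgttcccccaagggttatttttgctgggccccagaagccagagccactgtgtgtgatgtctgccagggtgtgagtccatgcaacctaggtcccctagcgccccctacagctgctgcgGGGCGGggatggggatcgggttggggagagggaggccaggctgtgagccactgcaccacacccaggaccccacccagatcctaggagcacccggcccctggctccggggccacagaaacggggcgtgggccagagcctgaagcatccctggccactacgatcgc
Itgam promoter: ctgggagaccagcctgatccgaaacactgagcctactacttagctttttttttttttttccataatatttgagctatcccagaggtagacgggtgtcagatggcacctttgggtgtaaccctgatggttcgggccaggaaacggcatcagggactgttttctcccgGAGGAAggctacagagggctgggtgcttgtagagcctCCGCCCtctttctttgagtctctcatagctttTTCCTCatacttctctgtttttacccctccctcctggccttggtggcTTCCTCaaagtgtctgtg
The Itgb5 window held 3 matches, all to the GC box, and the Itga4 window 1, also to the GC box. The Itga2b window held 2 matches, both to the ETS core, and the Itgam window 4, of which 3 were to the ETS core. GGGCGG was present in 12 of the 27 member windows (44.4%) and in 35.7% of 32851 windows of all genes. GAGGAA was present in 15 of 27 (55.6%) and in 28.3% of all windows, AGATAA in 1 of 27 (3.70%) and 11.2%, and TATAAA in 0 of 27 and 13.6%. A match is a run of letters and not a bound site.

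Summed over the 9 β chains, levels ran from 37.2 FPKM (median 61.5) to 68.0 in responders, against 78.6 (median 86.7) to 104 in nonresponders. The groups did not overlap in this sum, unlike in the sums of the other chain classes given below. Without Itgb5 the sums overlapped, at 37.2 to 55.7 in responders and 53.7 to 87.4 in nonresponders. Itgb8 held 52.7% ± 4.197 of the sum in responders and 39.7% ± 6.81 in nonresponders, while Itgb5 held 0% to 21.9% in responders and 10.99% to 40.6% in nonresponders. In every other class the sums overlapped between the groups. Those of the integrin α chains were 56.5 to 102 (responders) and 75.6 to 122 (nonresponders). In the same order, laminin α sums were 11.3 to 14.98 and 14.1 to 16.4. Laminin β sums were 14.98 to 26.2 and 19.0 to 32.1, and laminin γ sums 2.71 to 11.6 and 3.67 to 13.8. All these sums and shares are descriptions without a test. How often sums of other genes separate the groups was not tested.

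The collagen-binding α chains were low. Itga1, a collagen receptor chain of vessels, fibroblasts and Schwann cells, ran from 1.28 FPKM (median 1.84) to 2.21 in responders, against 2.09 (median 2.20) to 2.99 in nonresponders. Only responder 4 lay above the lowest nonresponder. The log2 fold change of Itga1 was -0.25 (SE 0.0982, limma unadjusted p = 0.0261, adjusted p = 0.632), and -0.32 with mice averaged by description number. Itga2, the collagen receptor chain of platelets and epithelia, ran from 0.721 FPKM (median 1.18) to 2.03 in responders, against 0.888 (median 1.72) to 2.54 in nonresponders (adjusted p = 0.829). Itga11, a chain of fibroblasts, averaged 1.80 ± 0.264 FPKM in responders and 1.88 ± 0.389 in nonresponders (adjusted p = 0.946). Itga10, a cartilage chain, did not pass the filter, at 0.211 to 0.497 FPKM in responders and 0.230 to 0.898 in nonresponders.

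Marker lists of the cell types in the tissue were summed in each mouse, and by limma 0 markers passed adjustment. Over all genes, 49.3% had a lower value in responders, and 0.296% were lower without overlap. That share is of single genes and not of sums. How often sums of other genes separate the groups was not tested. At an unadjusted p under 0.05, 4.17% of all genes were lower and 3.23% higher. Over 9 fibroblast and meningeal genes, the summed level was 263 to 517 FPKM in responders and 555 to 1626 in nonresponders, without overlap. Ptgds had the highest level in this list, at a mean of 218 FPKM in responders and 636 in nonresponders, and weighs most in the sum. Of the 8 tested, 7 had lower values in responders, 6 of them at an unadjusted p under 0.05. The 1 with a higher value was Dcn, at a mean of 22.9 FPKM against 21.1. Over 13 myelinating Schwann cell genes the summed level was 2675 to 5057 FPKM in responders and 4863 to 6983 in nonresponders. Of these, 11 of 12 tested had lower values, 8 at an unadjusted p under 0.05. Over 9 endothelial genes it was 42.8 to 62.0 FPKM in responders and 44.5 to 75.0 in nonresponders, with 8 of 9 lower and 0 at that level. Over 7 pericyte and smooth muscle genes it was 30.9 to 66.1 FPKM in responders and 29.9 to 83.5 in nonresponders, with 6 of 6 tested lower and 1 at that level. Over 8 satellite glial genes it was 1065 to 2700 FPKM in responders and 1900 to 3175 in nonresponders, with 7 of 8 lower and 2 at that level. Skeletal muscle markers, 7 of 7 lower and 1 at that level, summed to 8.86 to 363 FPKM in responders and 26.9 to 1667 in nonresponders. The 7 pituitary markers were all higher in responders, 6 at an unadjusted p under 0.05 (median log2 fold change 2.94), and summed to 359 (median 2440) to 77609 FPKM in responders, against 27.2 (median 358) to 1053 in nonresponders. Sensory neuron markers were higher in responders in 8 of 9 (median log2 fold change 0.11), and epithelial markers in 3 of 3 tested. Of the tested macrophage markers, 4 were higher and 3 lower. Neutrophil (8 of 8), platelet (5 of 5) and lymphocyte markers (2 of 2 tested) were lower. In these further lists 0 genes had an unadjusted p under 0.05. None of the lists had a gene at 0 in all mice. The part of these cell types in the lower values of Lama4, Itga1 and Itgb5 was not tested.

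Itga2b and Itgb3, which form the fibrinogen receptor of platelets, stood at 31.2 and 31.4 FPKM in nonresponder 4. Itga2b otherwise ran from 3.06 (median 4.05) to 7.23 in responders and from 2.73 to 11.4 in the other nonresponders. Its log2 fold change was -0.51 (SE 0.464, adjusted p = 0.806), and -0.10 without nonresponder 4. Responders 1 to 6 held 1.401, 4.09, 7.88, 2.99, 2.77 and 3.45 FPKM of Itgb3, against 3.95, 5.18, 5.70, 31.4, 10.7 and 3.37 in nonresponders 1 to 6. Apart from nonresponders 4 and 5, the nonresponders lay within the range of the responders. The log2 fold change of Itgb3 was -0.93 (SE 0.462, limma unadjusted p = 0.0699, adjusted p = 0.688), and -0.54 without nonresponder 4.

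Itga4, the chain of the receptor that binds VCAM1 on vessels, stood at 8.41 FPKM in nonresponder 4. It ran from 1.29 (median 1.67) to 2.53 in responders and from 1.68 to 3.25 in the other nonresponders (log2 fold change -0.42, SE 0.277, adjusted p = 0.751, and -0.16 without nonresponder 4). Itgam, the α chain of the complement receptor of neutrophils and macrophages, had listings of 0.111, 1.38, 2.46, 0, 0.452 and 0.469 FPKM for responders 1 to 6. In nonresponders 1 to 6 it was listed at 0.676, 0.0345, 1.87, 7.78, 1.70 and 0.718. The highest value again came from nonresponder 4, and the groups overlapped (log2 fold change -0.56, SE 0.484, adjusted p = 0.797, and -0.17 without that mouse). Itgal, the α chain of the lymphocyte receptor LFA, ran from 0.493 FPKM (median 0.846) to 1.56 in responders, against 0.388 (median 0.759) to 4.02 in nonresponders (adjusted p = 0.926). Itga5, the fibronectin receptor chain, ran from 0.602 FPKM (median 0.990) to 1.39 in responders, against 0.722 (median 1.31) to 3.32 in nonresponders (log2 fold change -0.34, adjusted p = 0.726, and -0.18 without nonresponder 4). Nonresponder 4 was the highest in both.

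In that library the 8 neutrophil markers summed to 4227 FPKM, the 5 platelet markers to 405 and the 7 lymphocyte markers to 38.3. In responders these sums were 9.69 to 632, 3.39 to 70.6 and 1.90 to 7.71 FPKM. Over all nonresponders the lowest sums were 7.95, 6.46 and 2.55. The 8 macrophage markers summed to 34.6 to 67.2 FPKM in responders and 28.1 to 84.9 in nonresponders. The part of these cells in the integrin values was not tested.

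Itgav, the α chain that pairs with β1, β3, β5, β6 and β8, averaged 2.21 ± 0.504 FPKM in responders and 2.99 ± 2.05 in nonresponders (adjusted p = 0.842). Nonresponder 3 held 7.10 FPKM, against at most 3.08 in responders.

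**Figure D4:**
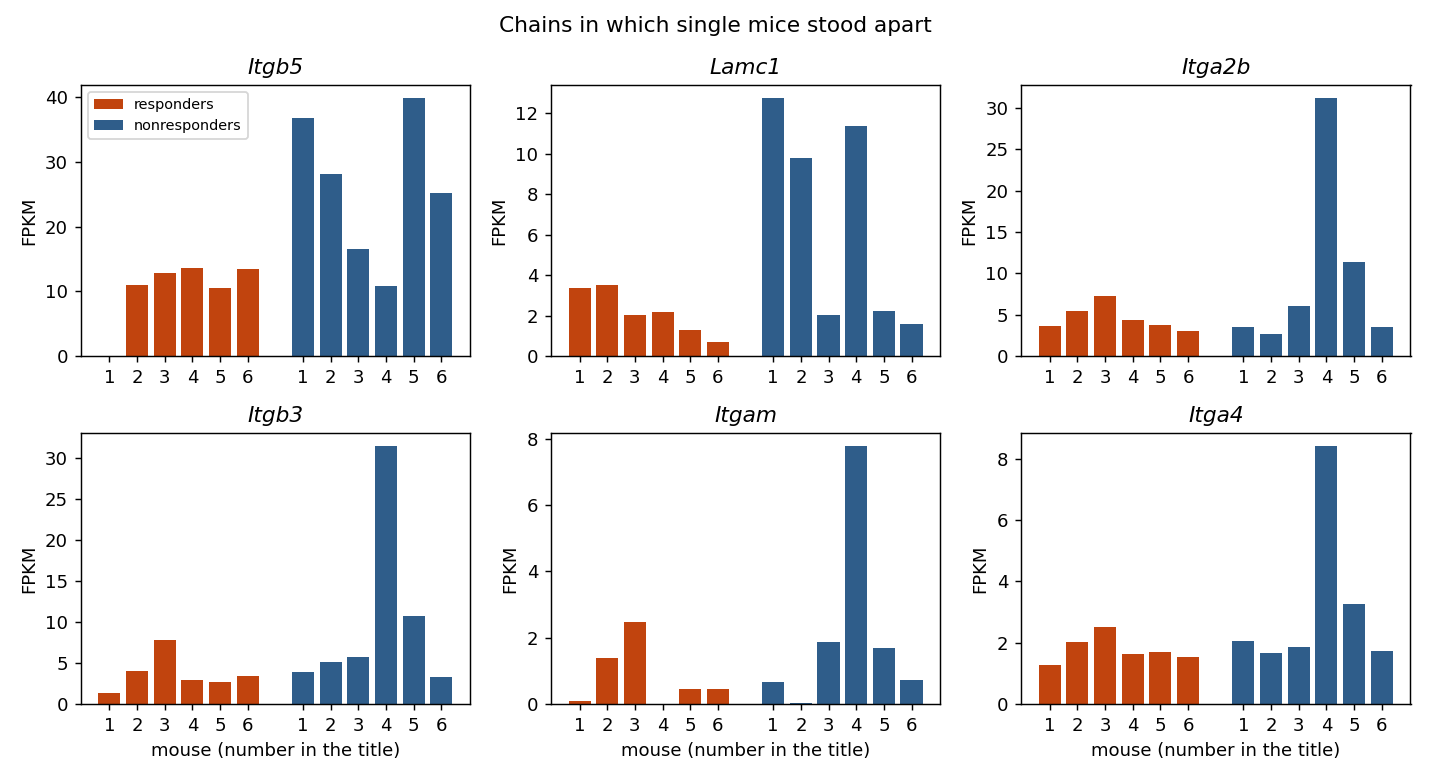
FPKM of 6 chains in each mouse, with responders 1 to 6 at the left and nonresponders 1 to 6 at the right of each panel. Itgb5 was listed at 0 in responder 1, Lamc1 was high in nonresponders 1, 2 and 4, and Itga2b, Itgb3, Itgam and Itga4 peaked in nonresponder 4.

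The leukocyte β chains had low listings. Itgb2, the obligate partner of the chains of Itgal, Itgam and Itgax, was listed at 0 in 6 mice. It was highest in nonresponder 4, at 2.23 FPKM, against at most 0.321 in responders. Itgal was listed at 0.388 FPKM or more in every mouse. Whether the 0 listings of Itgb2 are failed estimates was not tested. Itgb2l, a copy of Itgb2 in mouse, lay between 0 and 0.893 FPKM in responders, against 0 to 9.19 for nonresponders, the top value again from nonresponder 4. Itgb7, which pairs with α4 and αE, ran from 0.273 FPKM (median 0.570) to 0.806 in responders, against 0.617 (median 0.767) to 1.35 in nonresponders. None of these 3 passed the filter. Among the α chains that failed it, Itgax lay between 0.153 and 0.583 FPKM in responders, against 0.0692 to 1.60 for nonresponders. Itgae reached at most 0.273 FPKM in any mouse, Itgad 0.241, Itga8 0.433 and Itga9 0.139. Itgb6, an epithelial chain, reached at most 0.191 FPKM in responders and 0.423 in nonresponders.

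Whether the difference between responders and nonresponders differed by sex was tested as an interaction, and 0 of the 25 members passed (0% of all genes in either direction). At an unadjusted p under 0.05 there was 1 member, Itgb3, where 2.39% of all genes were higher and 2.62% lower. Its log2 fold change was -1.81 in males and -0.040 in females (interaction 1.77, limma unadjusted p = 0.0494, adjusted p = 0.836). Nonresponder 4 and responder 1 are male, and without both the count of members at that level was 0. With 1 mouse left out it ran from 0 to 4, with 4 without nonresponder 2 and 2 without responder 6. Of the interaction values, 15 members were above 0 and 10 below, against 50.4% and 49.6% of all genes. Within males 4 members were lower at an unadjusted p under 0.05 (Lama4, Itga4, Itgb3 and Itgb5) and 0 higher, where the shares over all genes were 3.67% and 3.11%. The male count of lower members was 1 without responder 1 and nonresponder 4, 2 without either alone, and 6 without responder 6 or nonresponder 2. Within females 0 were lower and 0 higher (1 lower without responder 1 and nonresponder 4, or without nonresponder 1), where the shares were 3.68% and 3.13%. In males 18 members had lower and 7 higher values, against 50.9% and 49.1% of all genes, and in females 15 and 10, against 50% each. By limma, 0 members passed adjustment within males (0.00704% of all genes in each direction) and 0 within females (0.00704% higher and 0% lower).

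Between females and males, 0 of 25 members passed, against 0.0141% of all genes higher and 0.0422% lower in females. At an unadjusted p under 0.05 there were also 0 members, where the shares over all genes were 2.01% higher and 2.51% lower. In females 12 members had higher and 13 lower values, against 48.3% and 51.7% of all genes, and the sexes separated in 0 members, against 0.106% higher and 0.211% lower. Log2 fold changes of females over males lay between -0.45 for Itgb3 and 0.67 for Itgb5.

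Chains that form known dimers or trimers were set against each other across the 12 mice. Of 31 pairs listed, 19 had both genes past the filter, and 1 passed adjustment over the 19. This was Itga2b with Itgb3, with Pearson r = 0.91 (permutation p = 0.00088, adjusted p = 0.0167) and Spearman rho = 0.61 (permutation p = 0.0387, adjusted p = 0.245). Without nonresponders 4 and 5, the mice farthest from the median of Itga2b, r was 0.53. Within responders r was 0.78 (exact permutation p = 0.0889) and within nonresponders 0.97 (exact permutation p = 0.025).

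Lama4 and Lamb1 had r = 0.76 (permutation p = 0.00788, adjusted p = 0.0749) and rho = 0.62 (permutation p = 0.0343, adjusted p = 0.245). Without the mice farthest out, responders 1 and 3, r was 0.60. Within responders r was 0.83 (exact permutation p = 0.0167) and within nonresponders 0.71 (exact permutation p = 0.1). Lama5 and Lamb1 had r = -0.74 (permutation p = 0.0244, adjusted p = 0.119) and rho = -0.45 (permutation p = 0.148, adjusted p = 0.431). Without responder 1 and nonresponder 2, the mice farthest out, r was -0.46. Within responders r was -0.92 (exact permutation p = 0.0778) and within nonresponders -0.28 (exact permutation p = 0.653). Lamb1 and Lamc1 had r = -0.20 (permutation p = 0.524, adjusted p = 0.891) and rho = -0.43 (permutation p = 0.168, adjusted p = 0.431), and -0.38 for r without responder 1 and nonresponder 5. Within responders r was -0.74 (exact permutation p = 0.0222) and within nonresponders -0.35 (exact permutation p = 0.453). The pairs of Itgb1 with Itga6 and Itga7 had r = 0.02 and -0.50 (permutation p = 0.963 and 0.0759, adjusted p = 0.963 and 0.206). Their rho was -0.11 and -0.43 (permutation p = 0.733 and 0.171, adjusted p = 0.87 and 0.431). Without the 2 farthest mice of each pair, r was 0.50 for Itga6 and -0.46 for Itga7. Within responders r was -0.50 and -0.39 (exact permutation p = 0.439 and 0.528), and within nonresponders 0.75 and -0.68 (exact permutation p = 0.322 and 0.183). For all pairs the p within a group was not adjusted, and the pairs printed are only a part of the 19. Among the others, Itgb1 within nonresponders had r = 0.75 with Itga5, -0.72 with Itga3 and 0.60 with Itga1 (exact permutation p = 0.0111, 0.0194 and 0.0472). Within responders these r were 0.23, 0.11 and -0.06.

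Genes that work beside these chains were taken from 4 lists, chosen with earlier results of these data known. By limma, 0 genes of these lists passed over all genes. Their counts stand beside 49.3% of all genes with a lower value and 4.17% lower at an unadjusted p under 0.05. Of 12 tested basement membrane partners, 7 had lower and 5 higher values in responders, with 4 lower at an unadjusted p under 0.05 (median log2 fold change -0.13). Nid1, the nidogen that links laminin to collagen IV, averaged 18.2 ± 2.13 FPKM in responders and 22.8 ± 2.59 in nonresponders (log2 fold change -0.31, SE 0.0948, adjusted p = 0.512). Col4a5 and Col4a1, chains of collagen IV, averaged 0.929 ± 0.335 and 19.7 ± 3.45 FPKM in responders, against 1.504 ± 0.315 and 25.7 ± 4.52 in nonresponders (adjusted p = 0.569 and 0.635).

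Of 20 other laminin receptor genes, among them the dystroglycan complex, 13 had lower and 7 higher values (median -0.061, 0 at an unadjusted p under 0.05). Sgce, a sarcoglycan, averaged 13.2 ± 1.93 FPKM in responders and 15.4 ± 2.26 in nonresponders (adjusted p = 0.726). Drp2, the dystroglycan partner of myelinating Schwann cells, averaged 55.1 ± 18.2 FPKM in responders and 64.8 ± 10.9 in nonresponders (adjusted p = 0.737).

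Of 31 integrin adaptors, which link the tails of integrins to actin and to signalling, 19 had lower and 12 higher values (median -0.058), with 1 lower at an unadjusted p under 0.05. This was Rap1a, a GTPase that switches integrins on, at 3.17 ± 1.33 FPKM in responders and 4.71 ± 1.01 in nonresponders (log2 fold change -0.50, adjusted p = 0.655). Itgb1bp1, which binds the tail of β1, had 16.6 ± 2.98 FPKM in responders and 13.3 ± 2.41 in nonresponders (log2 fold change 0.29, adjusted p = 0.678). Nedd9, a docking protein, had 4.22 ± 1.32 FPKM in responders and 5.84 ± 1.88 in nonresponders (adjusted p = 0.688). Of the other genes whose symbols start like a chain, Itgb3bp lay between 2.10 and 3.81 FPKM in responders, against 3.51 to 4.85 for nonresponders, while Itgb1bp2 and Itgbl1 were at most 0.956 and 0.00626 in responders and 6.86 and 0.167 in nonresponders.

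Integrin ligands made up the last list. Of its 19 tested genes, 17 were at lower and 2 at higher values in responders, 8 of the lower ones at an unadjusted p under 0.05. The median log2 fold change of the list was -0.58. Vtn, which encodes the αvβ5 ligand vitronectin, ran from 7.86 FPKM (median 11.9) to 16.7 in responders, against 14.6 (median 18.2) to 37.8 in nonresponders. The groups overlapped, and the median nonresponder lay above every responder (log2 fold change -0.87, SE 0.244, adjusted p = 0.445). Ccn2, a matricellular growth factor, averaged 0.431 ± 0.192 FPKM in responders and 1.06 ± 0.370 in nonresponders (log2 fold change -0.51, adjusted p = 0.389). Postn, a fibroblast matrix protein that binds αv integrins, ran from 2.20 FPKM (median 4.10) to 7.38 in responders, against 7.29 (median 16.3) to 68.9 in nonresponders (log2 fold change -2.02, SE 0.544, adjusted p = 0.445). The fibroblast marker sums given above are those of the same mice, and their part in the ligand values was not tested.

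Some members share sequence or exons with other annotated genes, and the sources used here do not say whether counting used the strand. Itgam matched the overlapping gene Gm49368 at 99.9% over 3454 bases, so that the split between them is uncertain. Exons of Itga4 overlap those of Cerkl on the opposite strand, and a transcript of Itgb5 matched Gm38317 at 99.7% over 343 bases. In GRCm38, Itgb5 (ENSMUSG00000022817) spans chr16:33829665-33949338 on the plus strand, Lama4 (ENSMUSG00000019846) chr10:38965515-39110188 on the plus strand and Itga1 (ENSMUSG00000042284) chr13:114953096-115101964 on the minus strand. Lamc1 (ENSMUSG00000026478) lies at chr1:153218922-153332786 on the minus strand. All 4 are annotated as protein-coding genes.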

How the data were processed

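RNA sequencing values of trigeminal ganglia from 12 mice were taken from 1 deposited table of FPKM per Ensembl gene, which the authors made with STAR 2.6.0a and StringTie 1.3.5 on GRCm38 and mm10, per the submitters' processing notes. The unit was inferred from the values; the sources used here do not give the authors' annotation release or filters. Symbols and coordinates came from GENCODE M21, which held 51024 of the 51341 identifiers. Depth could not be recovered. At the best-scoring depth of each library, between 10.5% and 25.6% of low values of genes with 1 exon were whole fragments to within 0.05. A depth fixed beforehand would give 10% by chance, and a searched one more. No intervals from counts were made.

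The 14203 genes that reached 1 FPKM in 3 or more mice were fitted with limma 3.58.1 in R 4.3.3 on log2(FPKM + 1), which understates the change of low genes. The response comparison and the comparison of the sexes came from 1 model with group and sex, and the interaction from 4 cell means. Adjusted p is Benjamini-Hochberg over all genes, 2-sided, with a threshold of 0.05. Correlations used 100000 permutations over 12 mice and exact pairings over 6. Transcripts were searched with blastn 2.17.0 (at least 90% identity over 200 bases, e-value 1e-20). The fit was tested on simulated data.

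In each class of chains the text gives the tested member of highest level and the 2 of smallest p in full, and members left out by the filter; 1 tested member and 1 gene of a related list are counted in the totals but not reported here. Itga7, Itga11, Itgav and Lama5 lie outside this rule and were added after their values were seen. The members and lists were chosen with earlier results of these data known. The design had allowed for counts, and the branch for FPKM was used. Alternatives covered pseudocount, filter, scaling, covariates, weights, averaging by description number, the block and leaving out mice.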

Additional observations from a re-analysis of the deposited data

Results flagged for a closer look

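In 17 of 72 groups of 6 mice, 1 mouse lay apart from the others by more than Dixon's 95% critical value. The rate of 1 in 20 groups tied to that value holds for normal data and independent groups. Here the values were FPKM without a log, some members were barely detected, and the groups share the same mice. The count is therefore a description and cannot be set against chance. Nonresponder 4 was the highest in 8 of them, at 31.2 FPKM for Itga2b, 31.4 for Itgb3, 8.41 for Itga4, 4.02 for Itgal, 7.78 for Itgam, 1.60 for Itgax, 2.23 for Itgb2 and 9.19 for Itgb2l. These are chains of platelets and leukocytes, and the neutrophil and platelet markers peaked in the same library at 4227 and 405 FPKM. Responder 1 was the highest for Lama1 (2.12 FPKM) and Lama5 (3.02) and the lowest for Itgb5, listed at 0. In responder 1 the pituitary markers summed to 77609 FPKM, and the epithelial markers to 169, against at most 13.8 in nonresponders. Nonresponder 3 was the highest for Itgav (7.10 FPKM) and for Itga9 (0.133). Responder 6 was the highest for Itga6 (52.9 FPKM), responder 2 for Itgb2l (0.893) and responder 3 for Itgad (0.241). Nonresponder 2 was the lowest for Itgb1 (1.92 FPKM). The part of these cell types in the values was not tested.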

How the results depend on the processing

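Over 25 alternatives, 0 of 598 adjusted p values of 24 members fell under 0.05 (smallest 0.261, for Itgb5), 578 kept the direction and 20 turned. The median of the tested members ran from -0.29 to -0.10. Members lower at an unadjusted p under 0.05 numbered 5 with no filter, 1 after rescaling to 1000000, and 2 to 5 with 1 mouse left out (5 without nonresponder 6). All genes called between responders and nonresponders numbered 1 when averaged by description number, 1 with the replicate block, and 2 to 6 with 1 mouse left out (5 without responder 2, 6 without responder 5 or 6), against 3 with all mice. For the interaction they numbered 0 to 3 with 1 mouse left out. With quantile normalization, genes higher at an unadjusted p were 54.1% of 1064, against 43.7% of 1051. Without responder 1 and nonresponder 4, Itga2b and Itgb3 had r = 0.81 (permutation p = 0.0116, adjusted p = 0.221), and 0 pairs were called.

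Turned values were all small. Without responder 1 and nonresponder 4 the log2 fold change was -0.031 for Lama5, 0.017 for Lamb1, 0.044 for Itga7, 0.0057 for Itga11 and 0.17 for Itgal. With array weights it was -0.022 for Lama5, 0.020 for Itga7 and 0.050 for Itgal, and averaged by description number 0.081 for Itga7. Leaving out 1 mouse gave -0.030 to 0.090 for Lama5, -0.47 to 0.0079 for Lamb1, -0.26 to 0.0081 for Itga6, -0.10 to 0.11 for Itga7, -0.074 to 0.038 for Itga11, -0.33 to 0.0089 for Itgav and -0.27 to 0.14 for Itgal. The turns of Lama5, Lamb1, Itga6, Itga7 and Itga11 included the loss of responder 1, that of Itgav the loss of nonresponder 3, and that of Itgal the loss of nonresponder 4; the cause was not tested. Correlations of same-numbered mice ran from -0.27 to 0.13. Mice of different numbers were not correlated beside them, so these values cannot decide whether the numbers carry a pairing. The main fit took the numbers as names only. Values near 1 FPKM are limited by unknown depth.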
